A study of Mus musculus with 53 samples.

Results

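Glutamate, GABA and glycine act on neurons of the cerebellum through receptors that are assembled from subunits, and the genes of those subunits were followed here through the loss of Insm1 or of Tead1 and Tead2. The genes were taken by symbol: all protein-coding genes of the NMDA, AMPA, kainate, delta and metabotropic glutamate receptors, of the GABAA and GABAB receptors and of the glycine receptors that the bulk tables and the single-cell matrices both list. This gave 52 genes out of 55573 in the bulk tables and 57010 in the single-cell matrices. They comprise 7 NMDA, 4 AMPA, 5 kainate, 2 delta and 8 metabotropic glutamate receptor genes, 19 GABAA genes (6 alpha, 3 beta, 3 rho and 7 others), 2 GABAB genes and 5 glycine receptor genes.

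Ionotropic receptors of these families are channels built from several subunits, and which subunits a neuron makes sets how fast its channels close, what they let through and where they sit, whereas the metabotropic and GABAB receptors act through G proteins. In the cerebellum, granule neurons are known to exchange receptor subunits as they mature after birth: Grin2b, which encodes the NMDA subunit GluN2B, gives way to Grin2c (GluN2C), and the GABAA subunits alpha6 (Gabra6) and delta (Gabrd) appear late. Granule neurons arise from progenitors of the rhombic lip that express Atoh1, and they take their input from mossy fibres, which release glutamate, and from Golgi cells, which release GABA and glycine.

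All comparisons were made in mouse cerebellum between Insm1fl/fl controls and Atoh1Cre; Insm1fl/fl mutants, and between Tead1fl/fl;Tead2fl/fl controls and Atoh1Cre;Tead1fl/fl;Tead2fl/fl mutants. Controls and mutants of an allele thus carried the same floxed genes, and only the mutants carried Cre, which is driven from Atoh1 and so acts in cells of the rhombic lip lineage; Purkinje cells, GABAergic interneurons and Bergmann glia arise elsewhere. No group here carried Cre without the floxed genes, so that an effect of Cre itself and an effect of the deletions cannot be told apart. At postnatal day 2 (P2), RNA of whole cerebella was sequenced from 4 controls and 4 mutants of Insm1 and from 3 controls and 4 mutants of Tead1/2, 1 pup each. At postnatal day 7 (P7), single cells of 10 cerebella, 1 animal each with no pooling, were barcoded together by split-pool labelling: 2 controls and 3 mutants of each allele. Control 1 and mutant 1 of each allele held all lobules at P7, and control 2, mutant 2 and mutant 3 were dissected without lobules IX and X. Each allele was 1 labelled batch at P2, and the P7 cells were a single batch.

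The bulk libraries held 28066643 to 64518751 expected counts and the P7 libraries 98416728 to 226631912 UMIs (unique molecular identifiers, each standing for 1 captured RNA molecule). Levels below are CPM, counts scaled to a common total of the library or of the cell class, and are not divided by gene length, so each gene is compared only with itself. Insm1 stood at 30.8 to 71.9 CPM in the P2 controls and 8.48 to 16.2 CPM in the Insm1 mutants, and at 56.9 to 58.5 against 5.78 to 14.6 CPM at P7. Tead2 stood at 30.2 to 31.7 CPM in the Tead1/2 controls and 7.22 to 9.08 CPM in the mutants at P7, but the count of Tead1 was not lower there (632 CPM in both controls, 1126 to 1324 CPM in the mutants). The ranges of Tead1 overlapped at P2, at 34.6 to 53.7 CPM in the Tead1/2 controls and 36.8 to 49.9 CPM in the mutants. At P2, the library labelled Tead1/2 mutant 4 had 25.7 CPM of Tead2, level with the highest of the controls (22.3 to 25.6) and above the other mutants (17.3 to 19.4). Counts of called members at P2 with Tead1/2 are therefore given with and without it, as are fits of Grin2c, Grm4, Grin2b, Grin1, Grm2, Gabra6 and Gabrd. Other P2 fold changes of this allele in the text include it. Clusters named muscle-like from their markers made up 0 to 0.0480% of the control cells at P7, 12.4 to 14.04% of the Insm1 mutant cells and 20.3 to 27.2% of the Tead1/2 mutant cells. Outside these shares, an unnamed cluster that also held the 12 muscle markers had 15 to 87 cells in each control and 154 to 336 in each mutant. At P2, 11 of 12 muscle markers rose in the Insm1 mutants (median log2 fold change 4.08) and none of the 12 was called in the Tead1/2 mutants (median 3.60). The sexes were unevenly spread: Xist marked 4 of 4 controls but 2 of 4 mutants of Insm1 at P2, 1 of 3 controls and 1 of 4 mutants of Tead1/2 at P2, 1 of 2 controls and 2 of 3 mutants of Insm1 at P7, and 2 of 2 controls but 1 of 3 mutants of Tead1/2 at P7. The Tead1/2 mutant marked at P2 is the library labelled mutant 4, so the 3 mutants left without it are all unmarked, at 0.110 to 0.295 CPM of Xist. The 6 X-linked members, among them Gabra3, Gria3 and Glra2, stand in that setting, and the part of sex in their values was not tested.

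Promoters are shown for 4 members that the results below turn on: Grin1, which rose in granule neuron-like cells of both alleles, Gria4, which fell there, and Grin2c and Gabra6, which were scarce in the controls and higher in the mutants. Each is the 250 bases before the transcription start in RefSeq on GRCm38.p6, written 5′ to 3′ on the strand of the gene. Grin2c lies on the minus strand with its promoter at chr11:115267244-115267493, Gabra6 on the minus strand at chr11:42321073-42321322, Grin1 on the minus strand at chr2:25319188-25319437 and Gria4 on the minus strand at chr9:4796235-4796484. The RefSeq gene of Grin2c reaches to base 115267297, so the start used lies inside the gene and the window overlaps it. Capitals mark matches, on either strand, to the core TEAD site CATTCC, the E-box CAGATG bound by Atoh1 and Neurod1, the E-box CAGCTG bound by muscle factors and the half-site TTGGC of the NFI factors that act in granule neurons.
Grin2c: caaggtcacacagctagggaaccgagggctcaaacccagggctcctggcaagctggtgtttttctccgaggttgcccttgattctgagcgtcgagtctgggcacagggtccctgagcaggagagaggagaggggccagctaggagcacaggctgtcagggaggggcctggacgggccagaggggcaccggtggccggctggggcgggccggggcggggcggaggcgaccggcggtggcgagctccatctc
Gabra6: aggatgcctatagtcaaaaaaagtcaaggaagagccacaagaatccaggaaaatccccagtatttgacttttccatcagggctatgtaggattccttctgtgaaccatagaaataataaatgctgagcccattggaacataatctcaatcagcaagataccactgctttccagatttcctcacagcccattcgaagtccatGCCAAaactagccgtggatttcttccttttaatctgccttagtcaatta
Grin1: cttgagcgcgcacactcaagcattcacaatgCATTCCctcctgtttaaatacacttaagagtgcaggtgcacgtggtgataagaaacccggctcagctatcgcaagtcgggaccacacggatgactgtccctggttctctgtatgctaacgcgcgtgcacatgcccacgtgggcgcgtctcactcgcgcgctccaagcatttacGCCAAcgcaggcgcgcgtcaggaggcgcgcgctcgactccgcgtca
Gria4: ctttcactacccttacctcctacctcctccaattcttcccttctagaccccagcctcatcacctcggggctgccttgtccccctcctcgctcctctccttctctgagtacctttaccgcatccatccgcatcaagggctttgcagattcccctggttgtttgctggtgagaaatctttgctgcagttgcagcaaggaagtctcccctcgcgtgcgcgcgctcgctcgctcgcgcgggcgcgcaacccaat

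Grin2c and Gria4 held none of the 4 motifs in this window. Gabra6 held an NFI half-site, read as GCCAA, at 49 to 45 bases before the start. Grin1 held a TEAD core at 219 to 214 bases and an NFI half-site at 46 to 42 bases before it. RefSeq sequences were matched for 36 of the 52 genes, with 43 promoters. CATTCC was found in 7 of the 43 (16.3%), those of Gabra3, Gabrb2, Glra3, Grin1, Grm7 and Grm8, against 12.6% of 32851 promoters of the same length. TTGGC was found in 19 of the 43, against 41.5% of all promoters. CAGATG was found in 3 and CAGCTG in 2 of the 43, with 14.4% and 13.001% of all promoters holding them. These matches describe letters in a window and say nothing of binding.

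At P2, the NMDA subunit gene Grin2c was the receptor gene whose RNA rose with the loss of Insm1. It stood at 3.45, 4.73, 3.31 and 3.98 CPM in the controls and 6.89, 8.63, 7.41 and 6.42 CPM in the mutants, and every mutant library lay above every control (log2 fold change 0.92, SE 0.14, adjusted p = 0.0175). It was the 1 gene called among the 45 members that passed the low-count filter, where 0.689% of 19582 genes tested were called (0.48% up and 0.209% down), with the call set at an adjusted p below 0.05. Without an adjustment, 10 of the 45 and 1763 of all genes had a p below 0.05. The median log2 fold change of the 45 was 0.07, against 0.01 over all genes tested. In bulk tissue, a change in the number of cells that make an RNA and a change in the RNA per cell cannot be told apart.

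None of the GABAA subunits was called by edgeR at P2 with Insm1. Gabra6 stood at 0.338, 0.161, 0.395 and 0.599 CPM in the controls and 1.35, 0.704, 0.939 and 0.862 CPM in the mutants (log2 fold change 1.39, SE 0.35, adjusted p = 0.17). Gabrb2, the beta2 subunit, stood at 54.9, 52.3, 51.2 and 53.9 CPM in the controls and 59.3, 62.2, 65.6 and 60.9 CPM in the mutants (log2 fold change 0.22, adjusted p = 0.177). For both genes the lowest mutant lay above the highest control. DESeq2 called Gabra6 and Gabrb2 beside Grin2c, with 1.59% of all genes called. Gabrd stood at 0.240 to 0.411 CPM in the controls and 0.383 to 0.613 CPM in the mutants, and these ranges overlapped (log2 fold change 0.46, adjusted p = 0.647). Grik2, which encodes the kainate subunit GluK2, went the other way without passing the test, at 168, 177, 174 and 183 CPM in the controls and 151, 158, 161 and 166 CPM in the mutants (log2 fold change -0.14, adjusted p = 0.533). Grin2b, at 202, 167, 149 and 211 CPM in the controls and 98.5, 191, 147 and 168 CPM in the mutants, varied more among the mutants than between the groups (log2 fold change -0.27, adjusted p = 0.697). The call of Grin2c rested on few libraries, since it missed the threshold when any 1 of control 1, 3 or 4 or mutant 2 or 3 was left out.

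With Tead1/2, Grin2c was higher in 3 of the 4 mutant libraries at P2, but no gene of the 20247 tested was called by edgeR with all libraries in the fit. Grin2c stood at 1.73, 1.99 and 3.65 CPM in the controls and 7.37, 7.93, 7.76 and 2.09 CPM in the mutants (log2 fold change 1.41, SE 0.41, adjusted p = 0.127), where the last value belongs to the library labelled Tead1/2 mutant 4 and lies among the controls. No receptor gene of 45 was called against a background of 0.0%, with 12 of the 45 and 4052 of all genes at an unadjusted p below 0.05, and DESeq2 called 4 of the 45 and 960 of all genes (4.74%). Without the library labelled mutant 4, 3.19% of 20234 genes were called and 2 of them were members. Grin2c rose (log2 fold change 1.68, adjusted p = 0.00423), and so did Grm4 (log2 fold change 0.45, adjusted p = 0.0214), which encodes the presynaptic receptor mGlu4 of parallel fibre terminals. Grm4 stood at 8.997, 9.70 and 9.03 CPM in the controls and 11.8, 12.9, 13.1 and 10.5 CPM in the mutants in the full set, with no overlap between the groups (adjusted p = 0.0969 there).

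Of the 6 NMDA genes tested at P2 none was called by edgeR with Tead1/2, and their median log2 fold change was -0.080. Grin2b stood at 151, 125 and 114 CPM in the controls and 77.5, 84.3, 106 and 104 CPM in the mutants (log2 fold change -0.48, SE 0.12, adjusted p = 0.105). Grin1, the subunit that every NMDA receptor needs, stood at 55.8, 59.9 and 57.8 CPM in the controls and 46.6, 44.9, 53.5 and 47.4 CPM in the mutants (log2 fold change -0.27, adjusted p = 0.098). In both genes all 4 mutant libraries, the one labelled mutant 4 included, lay below all 3 controls. DESeq2 called both, together with Grm2 (down) and Grm4 (up), whereas edgeR called none of them with all libraries. Grm2, the group II receptor of Golgi and unipolar brush cells, stood at 6.77, 7.88 and 4.64 CPM in the controls and 4.33, 3.86, 4.04 and 4.96 CPM in the mutants (log2 fold change -0.60, adjusted p = 0.118), and 1 mutant overlapped the controls. Gabra6 was at 0.273, 0.378 and 0.496 CPM in the controls and 0.862, 0.709, 1.07 and 0.411 CPM in the mutants and Gabrd at 0.297, 0.378 and 0.389 CPM in the controls and 0.930, 0.678, 0.688 and 0.443 CPM in the mutants, with log2 fold changes of 1.03 and 0.97 and adjusted p-values of 0.156 and 0.135. Gabra6 in the library labelled mutant 4 lay among the controls, and Gabrd in it lay just above them. Without that library, edgeR called none of the genes of this paragraph either. The log2 fold changes then were -0.54 for Grin2b (adjusted p = 0.0563), -0.26 for Grin1 (0.0876) and -0.67 for Grm2 (0.0742). Gabra6 had 1.21 (0.0622) and Gabrd 1.11 (0.0624).

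Other receptor genes differed little at P2 in either allele. Among the AMPA subunits, Gria2, which keeps calcium out of the channel, had log2 fold changes of 0.031 with Insm1 and -0.10 with Tead1/2, Gria4 had -0.037 and -0.10, and Gria1 had -0.078 and -0.052. Gabbr1, which encodes a subunit of the GABAB receptor, had 0.029 and -0.11, and Glrb, the glycine receptor subunit that binds gephyrin, had 0.13 and 0.049. None of these passed the test. Glra1, the adult glycine receptor subunit, was low throughout, at 0.364 to 0.629 CPM in controls of Insm1 and 0.602 to 0.744 CPM in the Tead1/2 controls. The 7 members that did not pass the filter were Gabrp, Gabrr1, Gabrr2, Gabrr3, Glra4, Grin3b and Grm6.

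The difference between the effects of the alleles was tested directly, and 0 of 45 members and 0 of all 20837 genes tested were called at P2, with 3 of the 45 and 1435 of all genes at an unadjusted p below 0.05 and none called by DESeq2. The difference for Grin2c was -0.48 (SE 0.46, adjusted p = 0.908). A list of 65 partner genes, which hold auxiliary subunits, scaffolds, anchoring proteins, transporters and enzymes of these receptors, was examined beside them, and edgeR called none of its genes at P2. With Insm1, 10 of the 65 had an unadjusted p below 0.05, as had 1763 of the 19582 genes tested, and DESeq2 called 2 (1.59% of all genes). With Tead1/2, 19 had an unadjusted p below 0.05, as had 4052 of 20247, and DESeq2 called 8 (4.74%).

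**Figure D1:**
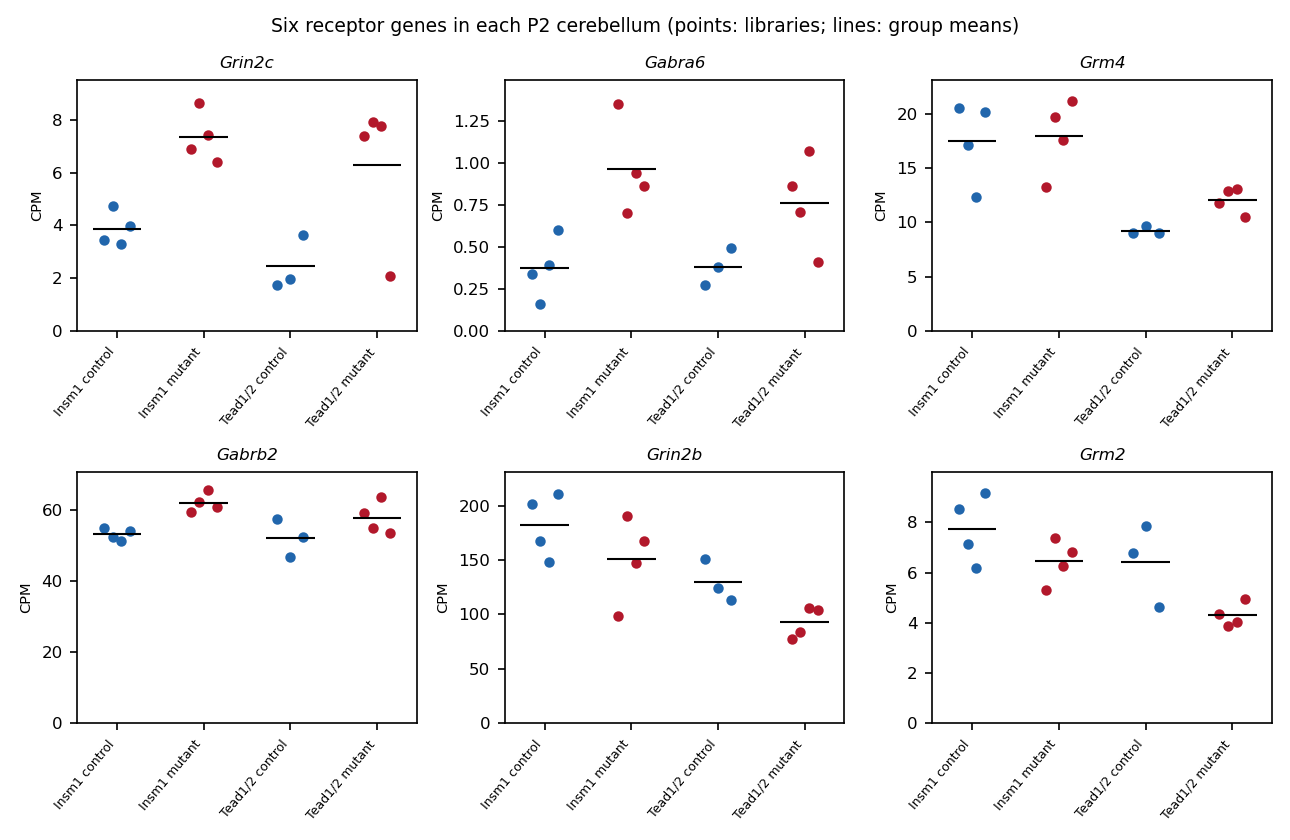
Levels of 6 receptor genes in each P2 cerebellum, in CPM on a linear axis from 0; points are libraries, blue for controls and red for mutants, and lines are group means. Grin2c in the 4 Insm1 mutants lies between 6.42 and 8.63 CPM, above all controls, and the lowest red point of Grin2c among the Tead1/2 mutants, at 2.09 CPM, is the library labelled mutant 4.

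**Figure D2:**
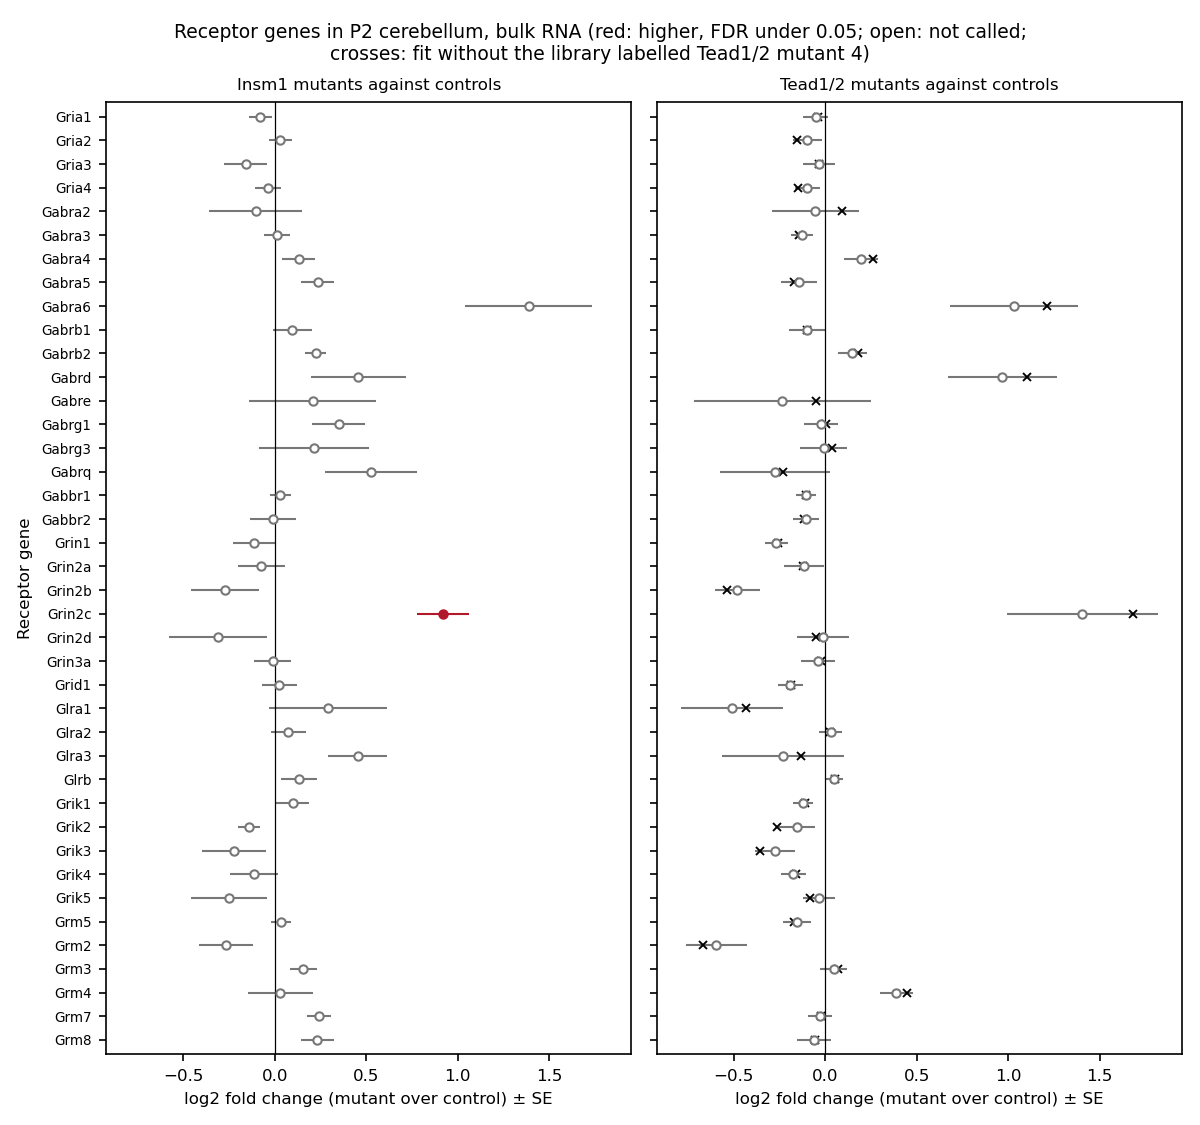
Log2 fold changes (mutant over control, horizontal axis) with standard errors for 40 of the 45 receptor genes tested at P2, with Insm1 on the left and Tead1/2 on the right; filled red points were called and crosses are the fit without the library labelled Tead1/2 mutant 4. Grin2c is the 1 filled point, and its cross for Tead1/2 stands at 1.68.

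The P7 cells were clustered without the receptor genes and named from markers, and receptor levels were compared between classes in the controls. Purkinje-like cells, with 10 to 153 cells in each control, and the unnamed clusters were not ranked. Over the 4 control libraries, Grik2 stood at 7925 ± 814 CPM (SD, n = 4) in granule neuron-like cells and 4364 ± 589 CPM in granule progenitor-like cells. Grin2b stood at 1799 ± 487 CPM in granule neuron-like cells against 636 ± 208 CPM in Bergmann glia- or astroglia-like cells, the next highest. For both genes, and for Gria2, Gabra2, Grm4 and Grin1, granule neuron-like cells were highest of the classes ranked, without overlap with the second class. In cells with at most 1.5 times the median UMIs of their library, called cells of ordinary depth below, Grin1 was instead highest in oligodendrocyte lineage-like cells, at a pooled 31.6 CPM against 25.3 CPM in granule neuron-like cells. Gria4, at 1981 ± 340.0 CPM, overlapped Bergmann glia- or astroglia-like cells at 1581 ± 207 CPM, and in cells of ordinary depth the order turned (2012 against 2181 CPM).

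Glial classes were highest for other members. Gria1 stood at 1036 ± 166 CPM in Bergmann glia- or astroglia-like cells, without overlap with the second class. That class held many cells of unusual depth, and in cells of ordinary depth the pooled level was 3169 CPM. Gabra3 stood at 26.5 ± 3.10 CPM in oligodendrocyte lineage-like cells, the highest class, and at 98.2 CPM in those of ordinary depth. GABAergic interneuron-like cells were highest for Gabrb2 (59.2 ± 9.97 CPM) and Glra2 (28.1 ± 6.37 CPM), the glycine receptor subunit of the newborn brain, and at ordinary depth these levels were 148 and 86.2 CPM. Grin2a, another NMDA subunit of maturing neurons, was highest in granule progenitor-like cells (54.6 ± 7.56 CPM). Grin2c, Gabra6 and Gabrd stayed under 1 CPM on average in each class of the controls, and their classes cannot be ranked. For Gabbr1 and Gabbr2 the first and second class overlapped.

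**Figure D3:**
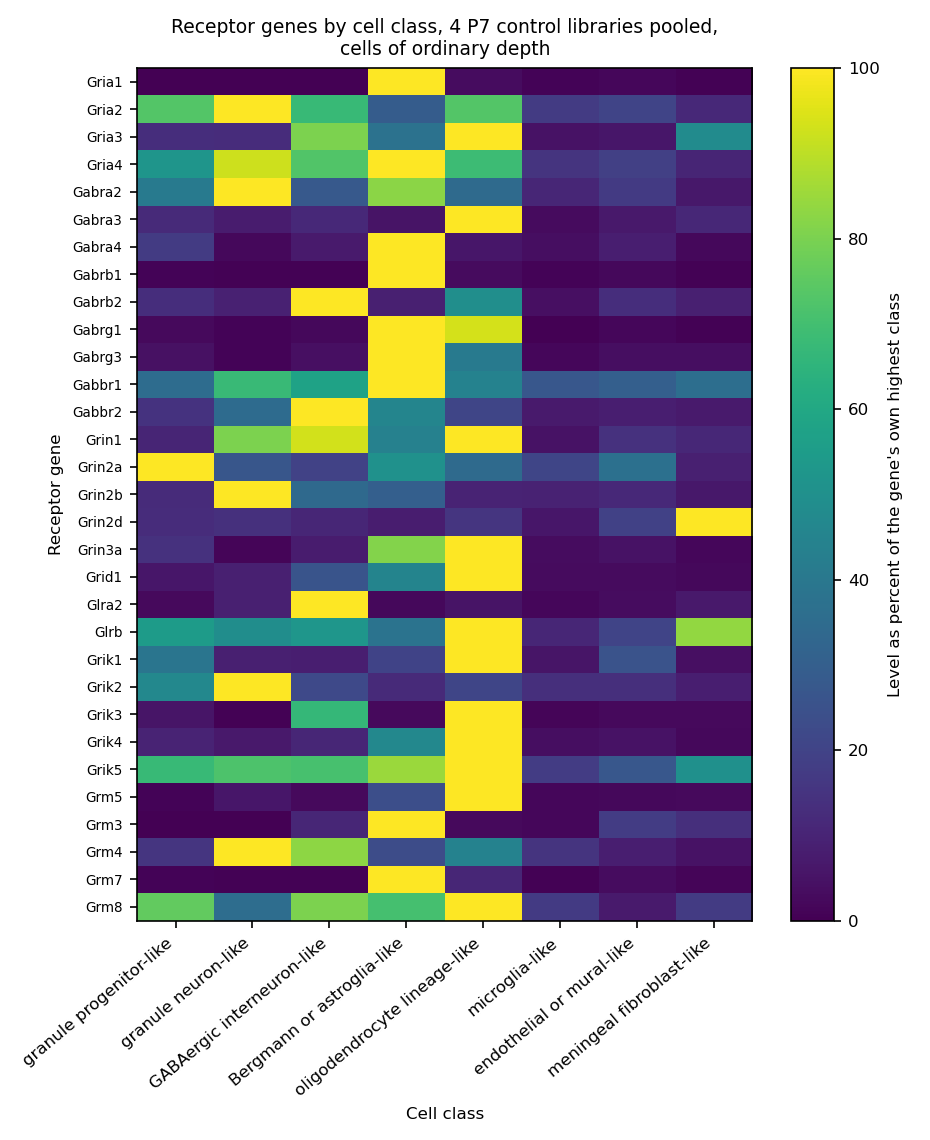
Level of each receptor gene in 8 cell classes of the 4 P7 control libraries pooled, in cells of ordinary depth, as a percentage of the gene's own highest class (colour scale from 0 to 100). Rows are genes with at least 5 CPM in some class; Gria1 and Grm3 peak in the Bergmann glia- or astroglia-like column and Grik2 and Grin2b in the granule neuron-like column.

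Most of the receptor genes tested in granule neuron-like cells at P7 were called in each allele. In the Insm1 mutants, 20 of the 39 members that passed the filter rose and 2 fell, where 23.5% of 13799 genes were called, 14.9% up and 8.59% down. In the Tead1/2 mutants, 22 rose and 5 fell, where 22.4% were called, 13.5% up and 8.88% down. The median log2 fold change was 0.64 and 0.90 over the 39 members and -0.01 over all genes in each allele. Genes that were scarce in the controls passed the filter mainly through the mutant libraries, so these counts describe the genes tested and not all 52. The class held 1438 to 2522 cells in each control and 506 to 1347 in each mutant. Other removals of doublets left the counts close to these. Without the highest 40% of doublet scores, 21 members were called with Insm1 (23.3% of genes) and 25 with Tead1/2 (21.2%). With Scrublet's own threshold there were 22 (22.0%) and 26 (21.1%). That threshold cut the libraries unequally. It kept 1347 of 1347 cells of the class in Insm1 mutant 1, 1438 of 1438 in Tead1/2 control 2 and 1048 of 1048 in Tead1/2 mutant 1.

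Different clusters made up the class in controls and mutants. Clusters 9 and 13 held nearly all cells of the class in the controls, with 63.6 to 80.6% in cluster 9 and 18.5 to 35.6% in cluster 13. In the mutants, cluster 9 held 8.89 to 35.1% and cluster 13 held 6.22 to 15.3%. Clusters 12 and 25 held most mutant cells, with 13.5 to 43.6% in cluster 12 and 27.8 to 58.0% in cluster 25, against at most 2.78% and 0.139% in the controls. The progenitor markers in the class summed to 768 to 933 CPM in the controls and 464 to 676 CPM in the mutants. The 10 granule neuron markers summed to 18672 to 20478 CPM in the controls and 15646 to 18413 CPM in the mutants. Of these 10, 3 were called up and 5 down with Insm1, and 2 up and 5 down with Tead1/2. The 12 muscle markers summed to 61.6 to 93.4 CPM in the controls and 129.6 to 481 CPM in the mutants. The part of these shifts in the receptor values of the whole class was not tested, but the levels within clusters are given below.

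Among the NMDA genes, Grin1 and Grin2a rose in both alleles, and Grin2c, scarce in the controls, was higher in the mutants. Grin2c stood at 0.313 and 0.466 CPM in controls of Insm1 and 8.81, 15.4 and 16.3 CPM in the mutants (log2 fold change 5.10, SE 0.52, adjusted p = 2.75e-06) and at 0.173 and 0.628 CPM in controls of Tead1/2 and 7.47, 16.7 and 8.81 CPM in the mutants (log2 fold change 4.81, SE 0.55, adjusted p = 9.42e-06). The control values of Grin2c rest on 5 and 4 UMIs with Insm1 and 2 and 6 with Tead1/2. The ratio of mutants to controls over pooled UMIs was 32.1 with Insm1 (95% interval from counting 16.6 to 71.1) and 28.8 with Tead1/2 (14.4 to 67.7). Intervals of this kind, here and for Gabra6 and Gabrd below, hold counting error alone and leave out the spread between animals. Grin2c passed the filter through the mutant libraries, and a gene that passes in this way has to differ, so its adjusted p-values are given as a description. Grin1 went from 24.1 and 25.8 CPM to 132, 159 and 109.9 CPM with Insm1 (log2 fold change 2.43, SE 0.16, adjusted p = 2.75e-08), and its log2 fold change with Tead1/2 was 1.96 (adjusted p = 3.48e-07). Grin2a, at 12.4 to 23.2 CPM in the Insm1 controls, reached 101 to 116 CPM in the mutants, and 13.8 to 28.4 CPM became 65.1 to 84.3 CPM with Tead1/2. Grin2b was called in 1 allele only: it stood at 2286 and 2060.1 CPM in controls of Insm1 and 2198, 1949 and 1726 CPM in the mutants (log2 fold change -0.15, SE 0.12, adjusted p = 0.43) and at 1306 and 1364 CPM in controls of Tead1/2 and 1079, 761 and 917 CPM in the mutants (log2 fold change -0.54, SE 0.12, adjusted p = 0.00458). It thus fell with Tead1/2 and was not called with Insm1, and the difference between the effects was 0.39 (SE 0.17, adjusted p = 0.602).

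Of the AMPA subunits, Gria4 fell in both alleles. It stood at 2168 and 2296 CPM in controls of Insm1 and 1229, 1019.6 and 1032 CPM in the mutants (log2 fold change -1.03, SE 0.14, adjusted p = 6.82e-05), and at 1663 and 1594 CPM in controls of Tead1/2 and 619, 378 and 544 CPM in the mutants (log2 fold change -1.67, SE 0.15, adjusted p = 5.39e-07). Every mutant library lay below every control. Gria3 rose with Insm1 (log2 fold change 1.16) and with Tead1/2 (0.66). Gria2 was called in neither allele, with 0.14 (adjusted p = 0.142) and -0.16 (adjusted p = 0.086). Gria1, a few CPM in these cells, rose with Tead1/2, from 2.09 to 3.03 to 3.66 to 6.68 CPM (adjusted p = 0.0404), and its log2 fold change with Insm1 was -0.062.

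Kainate and delta genes moved in both directions. Grik2 fell modestly, from 7925 to 8868 to 6577 to 7240.1 CPM with Insm1 (log2 fold change -0.30, adjusted p = 0.0175) and from 6925 to 7153 to 4692 to 5479 CPM with Tead1/2 (log2 fold change -0.50, adjusted p = 0.000359). Grik3, the GluK3 gene, stood at 7.003 and 5.35 CPM in controls of Insm1 and 47.4, 62.7 and 67.2 CPM in the mutants (log2 fold change 3.20, SE 0.22, adjusted p = 4.47e-08), and its log2 fold change with Tead1/2 was 3.14 (adjusted p = 1.94e-07). Grid1, a delta receptor gene, fell with Tead1/2 (log2 fold change -0.60, adjusted p = 2.41e-05) and was not called with Insm1 (-0.051), and the difference between these effects was 0.55 (SE 0.11, adjusted p = 0.0568).

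Of the metabotropic genes, Grm5, a group I receptor that acts through calcium stores, and Grm4 rose in both alleles. Grm5 stood at 30.8 and 41.9 CPM in controls of Insm1 and 364, 349 and 303 CPM in the mutants (log2 fold change 3.24, SE 0.25, adjusted p = 1.13e-07) and at 25.01 and 57.4 CPM in controls of Tead1/2 and 159, 171 and 193 CPM in the mutants (log2 fold change 2.10, SE 0.24, adjusted p = 9.42e-06). The mutants of Insm1 held the highest values of Grm5. Grm4, of group III, rose from 12.1 to 20.01 to 96.8 to 115 CPM with Insm1 (log2 fold change 2.71, adjusted p = 6.59e-07) and from 15.2 to 31.5 to 70.6 to 93.6 CPM with Tead1/2 (log2 fold change 1.80, adjusted p = 4.16e-05). All 3 group III genes tested, Grm4, Grm7 and Grm8, rose with Tead1/2, and Grm4 alone was called with Insm1.

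Of the GABAA subunits, Gabrb2 rose in both alleles. Gabrb2 stood at 13.4 and 17.5 CPM in controls of Insm1 and 190.1, 218 and 221 CPM in the mutants (log2 fold change 3.79, SE 0.15, adjusted p = 2.59e-10) and at 10.9 and 14.8 CPM in controls of Tead1/2 and 223, 282 and 268 CPM in the mutants (log2 fold change 4.34, SE 0.16, adjusted p = 2.03e-10), the smallest adjusted p among the members in both alleles. Its groups did not overlap in either allele. Gabra6 went from 0.313 and 0.116 CPM to 3.60, 6.68 and 4.07 CPM with Insm1 (log2 fold change 4.24, adjusted p = 4.21e-05) and from 0.173 and 0.628 to 1.36, 1.82 and 3.32 CPM with Tead1/2 (log2 fold change 2.46, adjusted p = 0.00821). Gabrd went from 0.125 and 0.233 CPM to 1.60, 2.95 and 4.36 CPM with Insm1 (log2 fold change 3.94, adjusted p = 0.00166) and from 0 and 0.943 to 1.87, 2.12 and 2.33 CPM with Tead1/2 (log2 fold change 2.25, adjusted p = 0.0316). These last genes were scarce: the controls held 5 and 1 UMIs of Gabra6 with Insm1 and 2 and 6 with Tead1/2, and 2 and 2 and 0 and 9 UMIs of Gabrd. For Gabra6, the ratio of mutants to controls over pooled UMIs was 18.3 with Insm1 (95% interval from counting 8.06 to 51.3) and 5.57 with Tead1/2 (2.57 to 13.8). For Gabrd with Insm1, this ratio was 15.03 (5.49 to 57.5), and with Tead1/2 it was 4.83 (2.30 to 11.3), where all control UMIs came from 1 library. Both genes passed the filter through the mutant libraries, so their calls in these cells are given as a description and the sizes of the differences are poorly fixed.

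Of further GABAA subunits, Gabrb1, the beta1 subunit, rose with log2 fold changes of 2.30 with Insm1 and 2.24 with Tead1/2. Gabra2, the alpha2 subunit of young neurons, rose slightly with Insm1 (log2 fold change 0.33, adjusted p = 0.0146) and was not called with Tead1/2 (-0.25). Gabra3 was called in neither allele, with -0.50 (adjusted p = 0.0786) and 0.22 (adjusted p = 0.449).

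Gabbr2, the partner that Gabbr1 needs to signal, fell with Tead1/2, from 333 to 376 to 198 to 253 CPM (log2 fold change -0.65, adjusted p = 0.000607), and had a log2 fold change of 0.11 with Insm1. The difference between the effects on Gabbr2 was 0.76 (SE 0.16, adjusted p = 0.0823). Gabbr1 was not called, with log2 fold changes of 0.063 and 0.10. Of the glycine receptor genes, Glra2 rose from 7.33 to 8.07 to 34.4 to 41.3 CPM with Insm1 (log2 fold change 2.29, SE 0.19, adjusted p = 3.32e-07) and from 5.28 to 7.86 to 25.96 to 40.4 CPM with Tead1/2 (log2 fold change 2.38, SE 0.20, adjusted p = 3.92e-07), and Glrb was not called, with 0.077 and -0.22. Of the 13799 genes tested, 0.203% had effects that differed between the alleles, and none of them was a member by edgeR, with 18 of the 39 and 1116 of all genes at an unadjusted p below 0.05 and 4 called by DESeq2 (0.623% of all genes).

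**Figure D4:**
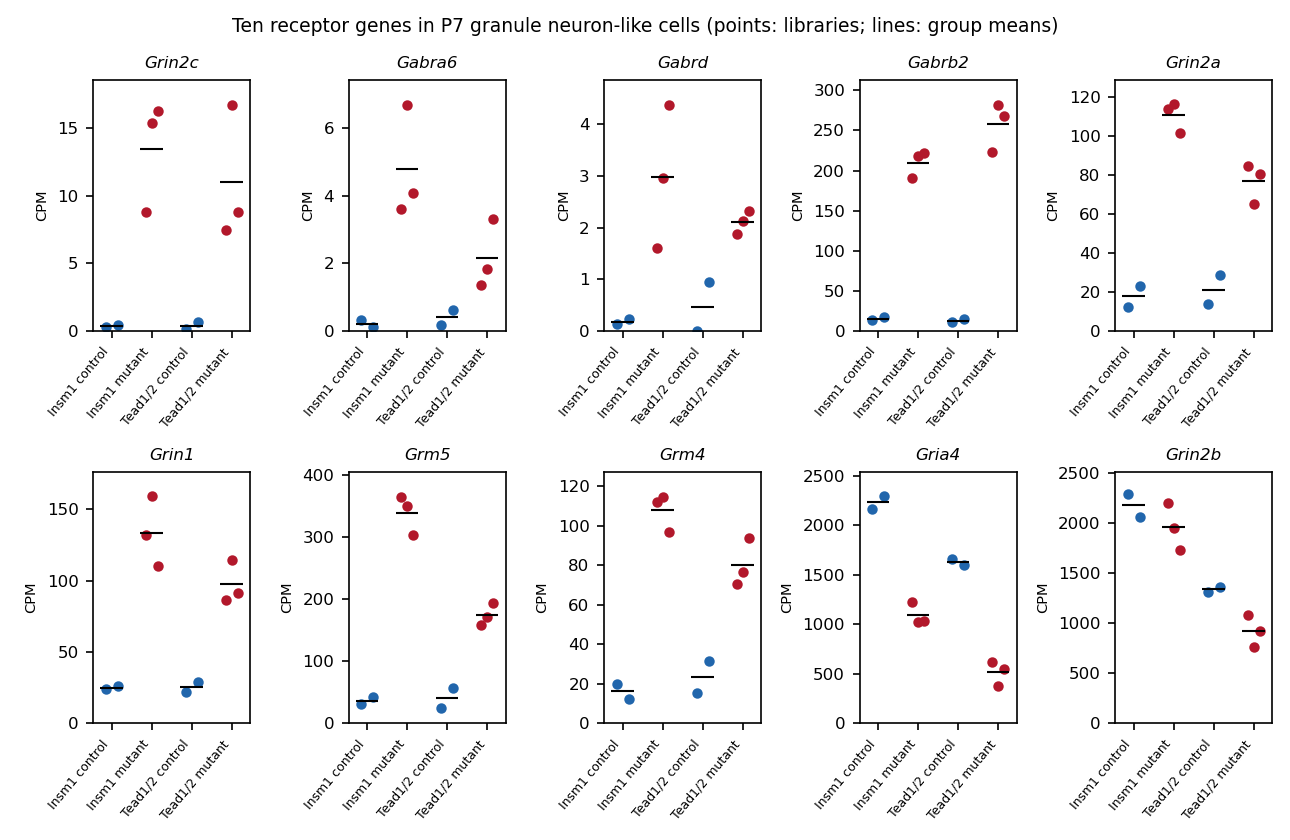
Levels of 10 receptor genes in granule neuron-like cells of each P7 library, in CPM on linear axes from 0, with blue points for controls, red points for mutants and lines for group means. The red points of Gabrb2, at 190.1 to 282 CPM, lie far above the blue ones, at 10.9 to 17.5 CPM, and those of Gria4 lie below.

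**Figure D5:**
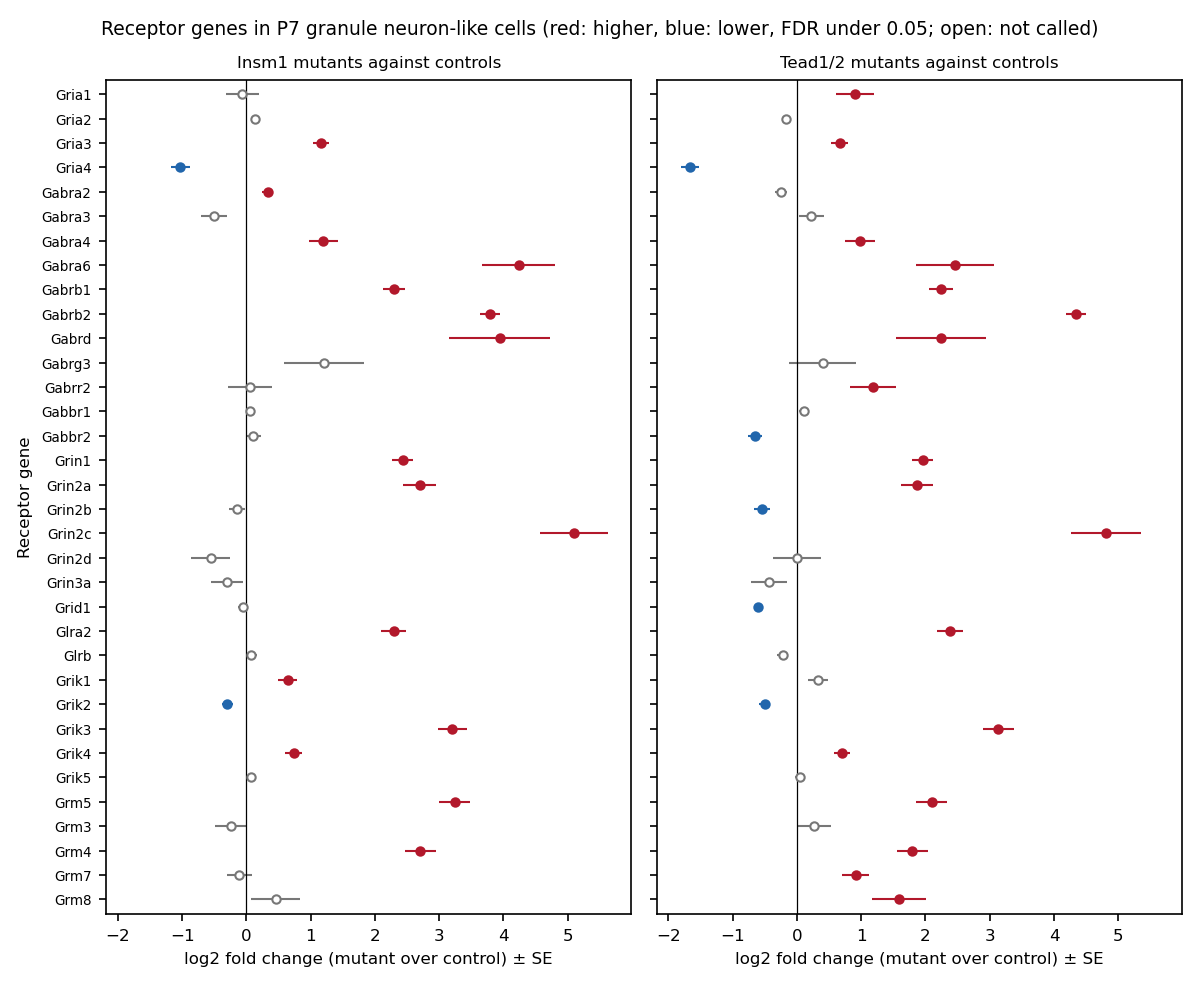
Log2 fold changes with standard errors (horizontal axis, mutant over control) of 34 of the 39 receptor genes tested in P7 granule neuron-like cells, Insm1 on the left and Tead1/2 on the right; red points rose, blue points fell and open points were not called. The right-hand points are mostly red, with Gria4, Grid1, Gabbr2, Grin2b and Grik2 in blue for Tead1/2 and Gria4 and Grik2 in blue for Insm1.

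Within the class, the levels of these genes differed from cluster to cluster. Over all libraries, Grin2c stood at 0.221 CPM in cluster 9 and 0.337 in cluster 13, but at 30.1 in cluster 12 and 4.60 in cluster 25. Gabrb2 stood at 12.4 and 18.9 CPM in clusters 9 and 13 and at 225 and 363 in clusters 12 and 25. Grm5 was concentrated in cluster 12, at 662 CPM, against 105 in cluster 25, 71.2 in cluster 13 and 3.62 in cluster 9. Gria4 stood at 519.8 CPM in cluster 25, 1041 in cluster 12, 1669 in cluster 9 and 2063 in cluster 13. These are levels of cells pooled over controls and mutants, which filled the clusters unequally, so cluster and genotype cannot be told apart in them, and they carry no test.

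A comparison restricted to clusters 9 and 13, chosen after the values were seen, removed most of the calls and kept the fall of Gria4. Markers of other cells differed in these clusters too: the 12 muscle markers summed to 61.4 to 87.7 CPM in the controls and 111 to 354 CPM in the mutants, with 3 of the 5 tested called up in each allele. The 5 unipolar brush cell markers summed to 34.2 to 50.98 and 84.01 to 159 CPM, with 1 of 3 called up with Insm1 and 3 of 3 with Tead1/2, and the 10 granule neuron markers to 18694 to 20542 and 18145 to 21565 CPM, with none of the 10 called by edgeR. The part of these markers in the receptor values was not tested. With Insm1, 8 of 34 members were called (3.54% of 11087 genes), 6 up and 2 down. With Tead1/2, 13 of 34 were called (5.57% of all genes), 6 up and 7 down. Gria4 stood at 2208 and 2333 CPM in controls of Insm1 and 1400.2, 1073 and 1250.5 CPM in the mutants (log2 fold change -0.86, adjusted p = 0.000984), and at 1717 and 1644 against 821, 545 and 671 CPM with Tead1/2 (log2 fold change -1.35, adjusted p = 7.96e-06). Gabrb2 and Grin1 still rose with Insm1, with log2 fold changes of 1.11 and 1.17, below those of the whole class.

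Some genes turned within these clusters. Gria3 fell, with log2 fold changes of -0.99 and -1.40, although it rose in the class as a whole. Glra2 fell with Tead1/2 (log2 fold change -1.999, adjusted p = 0.0452), where it also rose in the class. Grin2a, which rose in the class, had -0.39 (adjusted p = 0.721) and -0.40 (adjusted p = 0.67) and was not called. Gria2 (not called in the whole class) fell with Tead1/2 (-0.83), and so did 3 genes that also fell in the class, Grid1 (-1.35), Gabbr2 (-0.80) and Grik2 (-0.35). Grin2c stayed at 0.192 and 0.239 CPM in controls of Insm1 and 0.375, 0 and 0 CPM in the mutants, with 0.181 and 0.339 and 0, 0.698 and 1.04 CPM with Tead1/2, and Gabra6 had no UMI there in any mutant. Each mutant library gave 91 to 488 cells of clusters 9 and 13 and each control 1396 to 2504, so that scarce genes were less well measured in the mutants.

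Partner genes of the receptors were examined in the same cells. Of 59 partner genes tested in granule neuron-like cells, 22 rose and 10 fell with Insm1, where 14.9% of all genes rose and 8.59% fell, and 18 rose and 10 fell with Tead1/2, where 13.5% rose and 8.88% fell. Homer2, a scaffold that binds group I metabotropic receptors, stood at 104 and 104 CPM in the controls and 316, 363 and 320.4 CPM in the mutants with Insm1 (log2 fold change 1.68) and had a log2 fold change of 1.27 with Tead1/2. Dlg2, the scaffold PSD-93, rose with log2 fold changes of 1.56 and 1.76. Shank2 (1.61) and Gsg1l (2.71), an auxiliary protein of AMPA receptors, were among the 5 smallest p-values with Insm1, and with Tead1/2 these included Slc12a2 (0.90), a chloride importer. By list, the auxiliary subunits of AMPA and kainate receptors had 5 of 14 up and 3 down with Insm1 and 5 up and 2 down with Tead1/2, and the glutamate receptor scaffolds had 8 of 21 up and 2 down, and 8 up and 3 down. The inhibitory scaffolds had 4 of 11 up and 3 down, and 1 up and 3 down. Within clusters 9 and 13, 4 of 47 partner genes rose and 2 fell with Insm1 (3.54% of all genes called), and 5 rose and 5 fell with Tead1/2 (5.57%).

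GABAergic interneurons do not descend from Atoh1 progenitors, but the class named GABAergic interneuron-like also held RNA of progenitor and muscle markers, given below. Whether all of its cells lay outside the lineage with Cre was not tested. The class showed called members in both directions when it was taken whole. With Insm1, 14 of 42 members rose and 10 fell (11.8% and 8.47% of 16279 genes, 20.3% in all), and with Tead1/2, 10 rose and 10 fell (12.6% and 9.61%, 22.2% in all). Some of these, such as Gabra6, were scarce in the controls and passed the filter mainly through the mutant libraries, so the counts describe the genes tested. Grin2c stood at 0.606 and 0.680 CPM in controls of Insm1 and 6.59, 7.91 and 11.9 CPM in the mutants (log2 fold change 3.77, SE 0.30, adjusted p = 6.66e-06). Grik2 stood at 2919.6 and 3308 CPM in controls of Tead1/2 and 1403, 1175 and 1165 CPM in the mutants (log2 fold change -1.32, SE 0.10, adjusted p = 3.56e-06), and fell with Insm1 as well (-0.97). Gabrb2 rose by log2 fold changes of 1.25 and 1.07, but its direction with Tead1/2 turned under other sets of cells. With Insm1, Gabrb2 and Grik2 turned under Scrublet's own threshold alone. In cluster 18, Grik2 stood at 515 and 423 CPM in controls of Tead1/2 and 364, 395 and 345 CPM in the mutants. Its log2 fold changes there were -0.42 with Insm1 (adjusted p = 0.266) and -0.38 with Tead1/2 (adjusted p = 0.118). Gabrb2 had 0.10 and -0.14 in cluster 18, and with the highest 40% of doublet scores removed 0.76 and -0.11. Under Scrublet's own threshold Gabrb2 had -0.12 (SE 0.55) and 0.37, and Grik2 had 0.51 (SE 0.94) with Insm1 and -1.38 with Tead1/2. That threshold cut the libraries unequally, so directions under it are poorly fixed. It kept 817 of 817 cells of this class in Insm1 mutant 1 and 965 of 965 in Tead1/2 control 2, but 390 of 1614 in Insm1 control 1. Gabra2 fell with Tead1/2, from 65.6 to 69.8 to 20.2 to 27.6 CPM (log2 fold change -1.51, adjusted p = 2.95e-05).

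Most of the class consisted of deep cells that differed between the groups. Cluster 5 held 67.8 to 75.5% of the control cells of the class and cluster 4 held 29.3 to 56.6% of the mutant cells, with median UMIs of 19456 and 18784 against 5235 in cluster 18. The muscle markers in the class summed to 50.3 to 74.4 CPM in the controls and 1279 to 4906 CPM in the mutants, and the progenitor markers to 2919 to 3409 and 2013 to 2165 CPM. In cluster 18, which controls and mutants shared, the progenitor markers stood at 444 to 587 CPM in the controls and 467 to 660 in the mutants, and the muscle markers at 50.4 to 73.9 and 94.0 to 596 CPM. Restricted to cluster 18, edgeR called none of 34 members with Insm1 (0.00936% of 10684 genes called; 4 members at an unadjusted p below 0.05), and 3 of 34 fell with Tead1/2 (0.758%). With the cells of the highest 40% of doublet scores removed instead, 5 of 34 members rose and 3 fell with Insm1 (4.09% of all genes called), and 2 fell with Tead1/2 (0.277%).

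The 3 genes that fell in cluster 18 with Tead1/2 are subunits of young neurons and a metabotropic receptor. Grin2b stood at 354 and 327 CPM in the controls and 159, 141 and 162 CPM in the mutants (log2 fold change -1.17, SE 0.10, adjusted p = 8.18e-07). Gabra2 stood at 23.7 and 28.1 and 4.79, 8.81 and 9.29 CPM (log2 fold change -1.76, adjusted p = 0.00664), and Grm5 at 18.3 and 6.48 and 2.18, 5.88 and 1.92 CPM (log2 fold change -2.07, adjusted p = 0.0459). The groups did not overlap in any of the 3. The values of Grm5 rest on 47 and 12 UMIs in the controls and 5, 12 and 6 in the mutants, so its separation is poorly fixed. Grin2c stayed between 0 and 0.979 CPM in each library of this cluster. The partner genes of the whole class were called in 29 of 63 with Insm1 and 25 of 63 with Tead1/2, where 20.3% and 22.2% of all genes were called. In cluster 18, edgeR called 0 of 55 (4 at an unadjusted p below 0.05) and 2 of 55, where 0.00936% and 0.758% of all genes were called.

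Summed over all cells of the P7 cerebellum, 17 of 51 members rose and 8 fell with Insm1 (18.2% and 15.2% of 24251 genes, 33.4% in all), and 15 rose and 15 fell with Tead1/2 (25.8% and 22.6%, 48.3% in all). Some genes that were scarce in the controls passed the filter mainly through the mutant libraries here too, so these counts describe the genes tested. The sums include the muscle-like cells of the mutants and the smaller share of granule neuron-like cells, which made up 20.9 to 24.2% of the Insm1 control cells and 10.9 to 19.4% of the mutant cells, and 19.7 to 23.2% and 10.1 to 14.4% with Tead1/2. Grik2, Gria4 and Grin2b fell in both alleles: Gria4 stood at 1606 and 1599 CPM in controls of Insm1 and 772, 631 and 637 CPM in the mutants and at 1196 and 1195 CPM in controls of Tead1/2 and 422, 293 and 384 CPM in the mutants. Grin1, Gabra6, Gabrb2, Gabrd and Grin2c rose in both. Grm2 fell, from 1.21 to 1.46 to 0.168 to 0.326 CPM with Insm1 (log2 fold change -2.41, adjusted p = 0.00026) and with a log2 fold change of -2.14 with Tead1/2. Without the muscle-like and unnamed clusters, 20 members rose and 6 fell with Insm1, and 21 rose and 12 fell with Tead1/2, where 30.3% and 42.7% of all genes were called, and Grin2b missed the threshold with Insm1 (log2 fold change -0.67, adjusted p = 0.0571).

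The effects of the alleles differed for 4 members in these sums (3.33% of all genes differed). Grin2c stood at 0.591 and 0.478 CPM in controls of Insm1 and 6.80, 10.2 and 9.55 CPM in the mutants, and at 0.729 and 0.726 CPM in controls of Tead1/2 and 2.89, 2.90 and 2.84 CPM in the mutants. Its rise was larger with Insm1 by 2.06 on the log2 scale (SE 0.26, adjusted p = 0.00621), and this difference was also called without the muscle-like and unnamed clusters. The Insm1 mutants held 698, 1276 and 1025 UMIs of Grin2c over all cells. Of these, granule neuron-like cells held 66, 99 and 56, and GABAergic interneuron-like cells held 79, 113 and 133. The rest lay in cells that were not fitted alone. In granule neuron-like cells, edgeR called no member for a difference between the alleles. Gria2 fell further with Tead1/2, with 785 and 806 CPM in controls of Insm1 and 499.8, 495 and 503 CPM in the mutants and 691 and 734 CPM in controls of Tead1/2 and 315, 278 and 287 CPM in the mutants (difference 0.61, SE 0.09, adjusted p = 0.00939). Grm8, a group III receptor of presynaptic terminals, rose further with Tead1/2 (0.85 against 1.77, difference -0.91, SE 0.16). Gabbr2 fell with Tead1/2, from 296 to 335 to 141 to 182 CPM, and had a log2 fold change of -0.030 with Insm1 (difference 0.88, SE 0.17, adjusted p = 0.0251). Without the muscle-like and unnamed clusters, the differences of Gria2 (0.39, SE 0.12, adjusted p = 0.317), Grm8 (-0.46, SE 0.17, adjusted p = 0.406) and Gabbr2 (0.66, SE 0.18, adjusted p = 0.266) kept their sign and were not called.

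Gria1 was not called in the sums, with log2 fold changes of 0.27 (adjusted p = 0.0739) and 0.048 (adjusted p = 0.733), but it rose in both alleles without the muscle-like and unnamed clusters, with 0.47 (adjusted p = 0.00999) and 0.43 (adjusted p = 0.0101). Bergmann glia- or astroglia-like cells, its highest class, made up 8.11 to 11.2% of all Insm1 control cells and 9.53 to 13.4% of the mutant cells. With Tead1/2 these shares were 3.85 to 4.79% and 5.18 to 6.07%. The part of these shares in the values of Gria1 was not tested. Glra1 stood at 0.556 to 0.646 and 0.429 to 0.609 CPM with Insm1 and at 0.567 to 0.633 and 0.463 to 0.854 CPM with Tead1/2, and was not called. Of the 65 partner genes, 14 rose and 16 fell with Insm1, where 18.2% of all genes rose and 15.2% fell, and 13 rose and 27 fell with Tead1/2, where 25.8% rose and 22.6% fell. Cbln4, a secreted partner of delta receptors and neurexins, rose by 2.64 and 4.38 on the log2 scale, Grip2, which binds AMPA receptors, by 1.87 and 2.38, and Slc12a2 by 0.61 and 0.81. Cacng2, the AMPA receptor partner stargazin, fell by 1.11 and 1.59 on the log2 scale.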

How the data were processed

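The 52 genes, the partner and marker lists and the rules were chosen with earlier results of these data known. The bulk tables hold expected counts per gene that the authors made with RSEM 1.3.3 after STAR 2.7.9a and Trim Galore 0.6.3, per the submitters' processing notes, which name the builds GRCm38.p6 and mm10 without roles; they were rounded to whole numbers here. The P7 matrices hold raw UMI counts per cell and gene as deposited, with GRCm39-1-1-3c named in the gene tables; the tool that made them is not given in the sources used here. Columns were matched to samples by their names, and cells to the 10 libraries by the deposited cell table.

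P7 cells had at least 1000 UMIs, 500 genes and under 15% mitochondrial counts. Scrublet's own threshold did not work (it marked 36.4 to 55.3% of cells in 7 libraries and at most 0.013% in the others), so the highest 4% of scores per library were removed; 77236 cells remained, 4662 to 10423 per library, where the labels name a target of about 100000. No barcode was shared between libraries. Cells were clustered with scanpy 1.11.5 on 2000 variable genes without the receptor genes (30 components, 15 neighbours, Leiden resolution 1), giving 32 clusters, and named from markers; the receptor genes Grin2b and Gabra6 were left out of the granule neuron markers. Names were rebuilt here and may differ from the study's own.

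UMIs were summed per library and class. Tests used edgeR 4.0.16 (R 4.3.3): TMM scaling, filterByExpr, quasi-likelihood tests over all genes, Benjamini-Hochberg adjustment and a threshold of 0.05. Standard errors are absolute log2 fold changes over the square root of their F statistics. The text names the called members, at most 12 per comparison with the smallest p-values, 23 members fixed by name, and at most 5 called partner genes per comparison; Grid1, Gabbr2, Grik3, Gria3, Gabrb1, Gabrb2, Grm3, Grm5, Grm7 and Grm8 are named beside values where they missed that rule, chosen after those values were seen. DESeq2 1.42.0, no low-count filter, blocks, left-out libraries and other sets of cells were tried as alternatives. The edgeR fits were tested on simulated data. Chromatin samples were not analysed here. Some member and partner genes entered the fits and counts and are not reported here by name.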

Additional observations from a re-analysis of the deposited data

Results flagged for a closer look

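Single libraries stood apart from the others of their group. Glra1 in Tead1/2 mutant 1 at P2 stood at 0.726 CPM, where the other mutants lay between 0.379 and 0.426 CPM. Grin2c in the library labelled Tead1/2 mutant 4 stood at 2.09 CPM, where the others lay between 7.37 and 7.93 CPM. Of 56 groups of 4 libraries examined in this way, chance alone would flag about 1 in 20.

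The effects of the alleles differed by the test of the difference for 4 genes summed over the P7 cerebellum. Insm1 minus Tead1/2, on the log2 scale, was 2.06 for Grin2c, 0.61 for Gria2, -0.91 for Grm8 and 0.88 for Gabbr2. Muscle-like cells made up 20.3 to 27.2% of the Tead1/2 mutant cells and 12.4 to 14.04% of the Insm1 mutant cells. Without the muscle-like and unnamed clusters the differences were 2.05 for Grin2c, which was still called, and 0.39 for Gria2, -0.46 for Grm8 and 0.66 for Gabbr2, which were not.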

How the results depend on the processing

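Among the called members that the text names, 573 values under the other settings kept direction and call, 89 kept direction and missed the threshold and 24 reversed, and with 1 library left out 977 kept both and 71 missed the threshold. At P2, DESeq2 called 3 members with Insm1 and 4 with Tead1/2, and with no low-count filter 6 were called with Tead1/2 (3.14% of all genes). The replicate block called 1 member with Insm1 (0.327% of all genes), 1 with Tead1/2 (1.17%) and 0 for the difference between alleles (0.0048%); the same-numbered P2 libraries share only a number, since their deviations correlated at -0.13, -0.08, -0.003 and 0.23 with Insm1 and at -0.05, -0.05 and -0.01 with Tead1/2. The ranges with 1 library left out count members alone. Beside them stands no share of all genes called in each fit, so they say nothing of members against other genes. Without the library labelled Tead1/2 mutant 4, that share was 3.19% at P2 with Tead1/2. Leaving out 1 library gave 0 to 1 called members at P2 with Insm1, 0 to 2 with Tead1/2 and 0 for their difference. At P7 it gave 20 to 23 and 22 to 28 in granule neuron-like cells (Insm1 and Tead1/2), 15 to 28 and 17 to 23 in GABAergic interneuron-like cells, with 15 without Insm1 control 2, 21 to 28 and 28 to 31 in all cells, and 0 to 3 and 2 to 7 for the differences between alleles in granule neuron-like cells and in all cells. Those differences came to 4 and 13 members with DESeq2 (0.623% and 8.61% of all genes) and 12 and 9 with no low-count filter (0.955% and 3.14%). The dissection (with or without lobules IX and X) as a block gave 5 in granule neuron-like cells (0.623%), and in all cells removing the highest 40% of doublet scores gave 1 (0.970%) and leaving out the muscle-like and unnamed clusters gave 1 (0.166%). Other sets of cells also moved the counts. Clusters 9 and 13, chosen after the data were seen, gave 8 and 13 called members in granule neuron-like cells, where Gabra2 (-0.075), Glra2 (-0.079), Gria3 (-0.99) and Grin2a (-0.39) reversed with Insm1 and Glra2 (-1.999), Gria3 (-1.40) and Grin2a (-0.40) with Tead1/2. In GABAergic interneuron-like cells, cluster 18 (chosen after the data were seen) gave 0 and 3, the threshold of Scrublet itself 0 and 0 (0.0% of all genes by edgeR; 1 and 4 members at an unadjusted p below 0.05), and removing the highest 40% of scores (also chosen then) 8 and 2. There, with Insm1, the log2 fold changes reversed under the threshold of Scrublet for Gabra2 (0.45), Gabrb2 (-0.12), Glra2 (-0.68), Grik1 (1.36), Grik2 (0.51) and Grik3 (-0.11), with 40% removed for Gabra3 (0.066), and in cluster 18 for Glra2 (-0.32) and Grm5 (-0.25). With Tead1/2 they reversed with 40% removed for Gabrb2 (-0.11), Grik1 (0.92), Grin2a (0.87) and Grm4 (-0.79), in cluster 18 for Gabrb2 (-0.14), Grik1 (1.29) and Grm4 (-0.76), and under the threshold of Scrublet for Grm4 (-0.18). The cause of these reversals was not tested. Scrublet's threshold cut some libraries and left others whole, which limits the reversals under it. Depth limited Gabra6, Gabrd and Grin2c, which had at most 9 UMIs in any control library of granule neuron-like cells, and in the class levels of the controls 61 values moved and 47 did not when deep cells were left out.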
